A study of Homo sapiens with 60 samples.

Results

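The cytosolic ribosomal protein genes are the protein-coding genes whose products, with ribosomal RNA, build the ribosome of the cytoplasm. Members were taken by symbol (RPL or RPS with a number, RPLP0, RPLP1, RPLP2 and RPSA, without the RPS6K kinases). They also had to reach a mean level of 5 CPM over 60 libraries, CPM being a gene's counts scaled to equal library size. The rule found 82 members among the 60675 genes of the count table, and 5 more symbols (RPL10L, RPL39L, RPL3L, RPS4Y1 and RPS4Y2) lay under that level. Of the members, 43 belong to the large subunit, 31 to the small subunit and 3 to the stalk, and 5 are paralogs or similar proteins (RPL7L1, RPL22L1, RPL26L1, RPL36AL and RPS27L). The libraries came from HT29, an established line of human colorectal adenocarcinoma cells, exposed to a herbal extract or to vehicle for 24 h. Libraries are grouped here into sets by the first part of their names. The labels place all of them in the same batch (BatchC) and do not say what that part marks. Water extracts of 2 herb mixtures, Yijin-tang and Soshiho-tang, formed 1 library set. Extracts of single herbs in 70% ethanol formed 3 more, which paired Schisandrae Fructus with Liriopis seu Ophiopogonis Tuber, Longan Arillus with Zizyphi Semen, and Aucklandiae Radix with Polygalae Radix. The low, medium and high doses were 20, 100 and 500 µg/mL. Polygalae Radix was given instead at 15.2, 76 and 380 µg/mL and Aucklandiae Radix at 14.8, 74 and 370 µg/mL. A dose was represented by 3 libraries, by 2 in Soshiho-tang, and by a single one in Polygalae Radix and Aucklandiae Radix. The 3 vehicle libraries, given DMSO alone (0.1% in the labels of the samples, 2% in the text of the series), formed a set of their own. Against vehicle, extract and library set therefore cannot be told apart.

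Ribosomal proteins are made in near equal amounts, and most of their genes are expressed strongly in any growing cell. Their mRNAs typically begin with a C followed by a run of pyrimidines, the 5' terminal oligopyrimidine (TOP) tract, through which the kinase mTOR and the protein LARP1 control their translation and stability. The acidic stalk proteins RPLP0, RPLP1 and RPLP2 recruit translation factors. RPL5, RPL11, RPL23 and RPL26 can bind the ubiquitin ligase MDM2 or act on p53 when ribosome assembly is disturbed. RPS27A is made as a fusion with ubiquitin, and RPSA is also known as the laminin receptor precursor. Gut epithelial cancer cells make many ribosomes, and these genes are among the most abundant mRNAs in such lines.

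The start of the transcript is shown for 13 members that carry the results below, 9 with such a run near the start and 4 without one there, because the run is the feature these mRNAs are best known for. Each stretch is RefSeq sequence on GRCh38.p14 on the strand of the gene, 5' to 3', with 25 bases before the listed start and 20 from it. The capitals mark the run, a C followed by at least 4 bases that are each C or T. Its first base had to lie within 5 bases of the listed start.
RPLP0, chr12:120201092-120201136, minus strand: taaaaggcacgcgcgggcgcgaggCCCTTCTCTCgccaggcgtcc
RPL26, chr17:8383174-8383218, minus strand: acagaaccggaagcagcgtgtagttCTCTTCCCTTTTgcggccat
RPL36A, chrX:101390986-101391030, plus strand: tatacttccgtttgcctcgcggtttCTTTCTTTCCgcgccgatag
RPL21, chr13:27251533-27251577, plus strand: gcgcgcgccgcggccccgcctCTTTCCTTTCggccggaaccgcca
RPS24, chr10:78033838-78033882, plus strand: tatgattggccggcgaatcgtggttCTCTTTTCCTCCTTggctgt
RPL34, chr4:108620551-108620595, plus strand: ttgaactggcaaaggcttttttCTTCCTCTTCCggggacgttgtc
RPL13, chr16:89560657-89560701, plus strand: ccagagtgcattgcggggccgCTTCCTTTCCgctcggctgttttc
RPL41, chr12:56116608-56116652, plus strand: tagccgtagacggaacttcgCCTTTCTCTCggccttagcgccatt
RPL22L1, chr3:170870176-170870220, minus strand: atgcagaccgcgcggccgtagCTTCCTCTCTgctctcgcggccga
RPS4X, chrX:72277229-72277273, minus strand: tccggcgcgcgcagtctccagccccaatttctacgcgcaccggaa
RPS29, chr14:49598691-49598735, minus strand: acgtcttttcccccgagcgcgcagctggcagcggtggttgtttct
RPS27L, chr15:63157458-63157502, minus strand: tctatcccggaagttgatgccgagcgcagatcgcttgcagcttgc
RPL7L1, chr6:42879591-42879635, plus strand: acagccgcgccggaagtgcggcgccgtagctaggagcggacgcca

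Of the 82 members, 67 had an entry in the RefSeq table of start regions. A run with its first base within 5 bases of the listed start was found in 55 of the 67 (82.1%), against 25.2% of all 27305 genes in the table. With the run required exactly at the listed start, 47 of 67 members (70.1%) held one, against 5.14% of all genes. The 12 members without a run there were RPL6, RPL7L1, RPL9, RPL15, RPL17, RPL26L1, RPL27, RPS4X, RPS15, RPS26, RPS27L and RPS29. Of the 5 paralogs or similar proteins, RPL7L1, RPL26L1 and RPS27L were in that group, and RPL22L1, shown above, held a run that began before its listed start. The match describes only the letters at listed starts. A gene with more than 1 listed start was counted as holding a run if any of them did. The stretch printed above for such a gene is the first one with a run.

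In the vehicle libraries, member levels spanned from 12.4 CPM for RPL26L1 to 2307 CPM for RPS2, with a median of 533.6 CPM. Per kb of coding length, which leaves out the untranslated parts of the mRNA that reads also cover, the median was 1179 CPM per kb. This scale overstates members with a short coding sequence, so their order is approximate. RPL41, whose coding sequence of 75 nt is the shortest of all members, stood highest on it at 10312 CPM per kb, above RPL13A at 3766 CPM per kb. The stalk proteins lay between 1427 CPM per kb for RPLP2 and 2649 CPM per kb for RPLP1. The 5 paralogs or similar proteins were the lowest of all members, from 28.5 CPM per kb for RPL26L1 through 44.3 for RPL22L1, 194.6 for RPS27L and 258 for RPL36AL to 306.5 CPM per kb for RPL7L1. RPS29 was the next in order at 328.6 CPM per kb. Reads that match a member and one of its many pseudogenes, or a paralog, are divided by the counting model, so the level of any 1 member carries that uncertainty. Members of overlapping readthrough genes (RPS10, RPL17 and RPL36A) carry it as well.

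**Figure D1:**
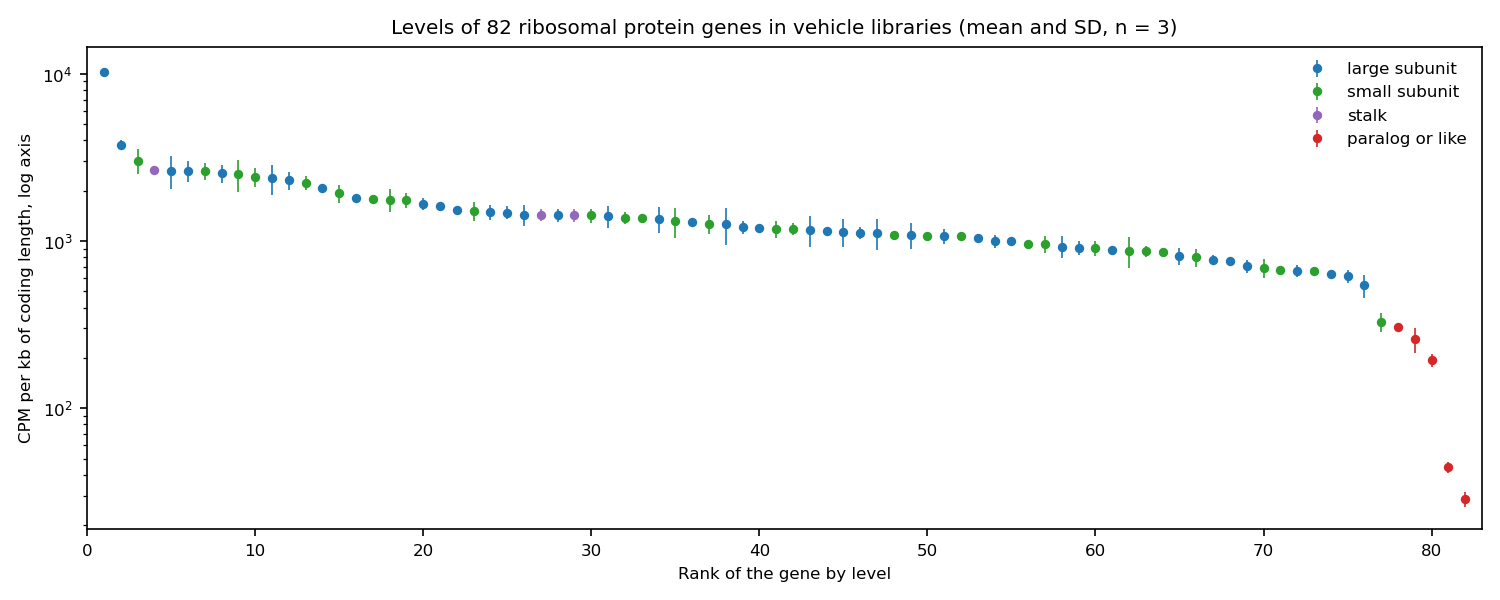
Mean level of each member in the 3 vehicle libraries, in CPM per kb of coding length on a log axis, against its rank, with the SD as the bar and the colour giving the role. RPL41 stands at the top with 10312 CPM per kb, and the 5 paralogs or similar proteins lie lowest, from 28.5 to 306.5 CPM per kb.

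The members took 5.07% of all counts at the median of 59 libraries, and library totals ran from 18161717 to 35128954 counts. Epithelial markers were present (10 of 11 with a mean of at least 1 CPM), as were 3 of 10 leukocyte, 1 of 6 fibroblast and 1 of 4 endothelial markers, while none of the 6 red cell or 5 hepatocyte markers reached that mean. The share in vehicle replicates 1, 2 and 3 was 4.94%, 5.49% and 5.75%, a range wider than in any extract group with replicates other than Soshiho-tang high dose. Other genes with a coding length under 600 nt moved in the same order there, with median log2 ratios to the vehicle mean of -0.055, 0.0050 and 0.041. Libraries of the 18 extract doses with replicates lay between 4.62% and 5.85%, apart from Yijin-tang low dose replicate 2 at 11.5%. That library was left out of all tests and is described at the end. Soshiho-tang high dose replicates 2 and 3 took 4.64% and 5.85%, the widest gap within a group apart from the one with the library left out. Replicate 3 of that group also held 9.70 CPM of summed red cell markers (at most 0.33 CPM in the other 58 libraries), with 4 of the 6 markers at 0 in every vehicle library. The part of those transcripts in its member levels was not tested. A share of counts is relative to all other RNA, and in bulk libraries fewer cells of a type and less RNA per cell cannot be told apart.

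**Figure D2:**
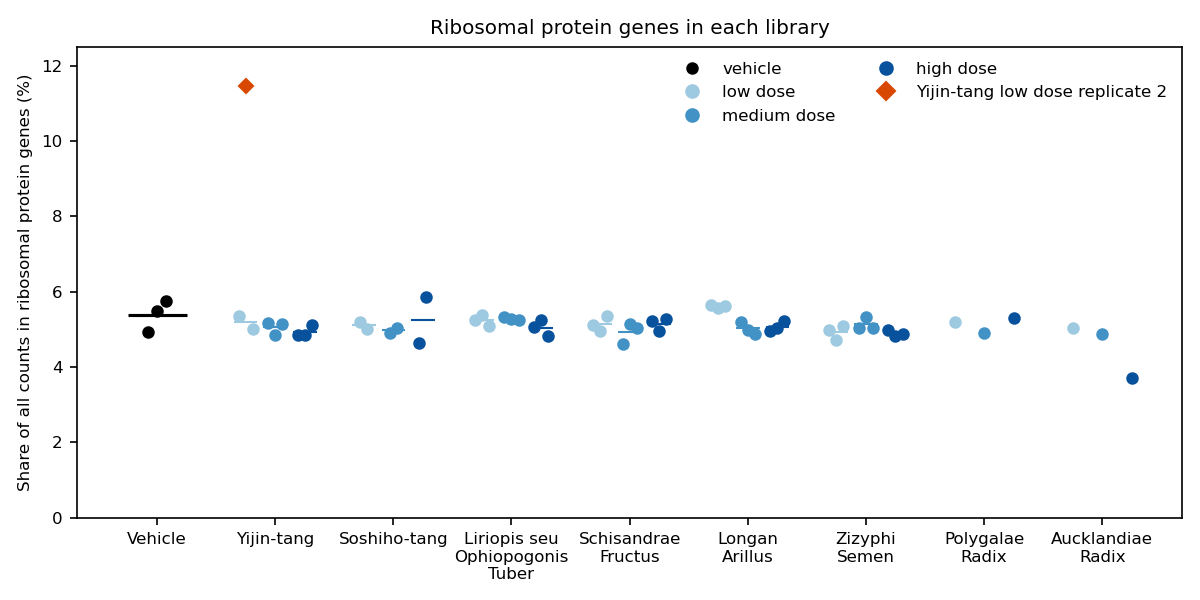
Share of all counts in the 82 members, in percent, for each of the 60 libraries, by extract and dose, with the group mean as a line. Yijin-tang low dose replicate 2 (diamond, left out of its mean) lies at 11.5%, Aucklandiae Radix high dose at 3.70%, and the other libraries between 4.62% and 5.85%.

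High dose was compared with vehicle to ask how cells given an extract differed from those given DMSO, with edgeR's quasi-likelihood test on all 16835 tested genes and a Benjamini-Hochberg adjusted p under 0.05 as the threshold. All 82 members passed the filter on low counts. Where members are counted below as without overlap between groups, the share of all genes without overlap was not computed. Those counts are descriptions. Member levels varied together over libraries (median correlation 0.763), so they are not counts of independent members. The members stood a little lower in extract than in vehicle libraries for all 6 replicated extracts, with a median log2 fold change between -0.17 and -0.037, while the median of all genes lay between -0.011 and -0.00079. No member rose in any of the 6 comparisons, and between 1 and 12 fell. The 6 comparisons use the same 3 vehicle libraries, so their results are not independent of each other. Each count depended on single libraries. Of the 37 calls against vehicle, 30 had their highest adjusted p when vehicle replicate 3 was left out, and none held with every library left out in turn. The medians depended on that library as well. Without vehicle replicate 3 the median turned to 0.050 in Soshiho-tang, and it was -0.078 in Yijin-tang, -0.075 in Liriopis seu Ophiopogonis Tuber, -0.044 in Schisandrae Fructus, -0.065 in Longan Arillus and -0.083 in Zizyphi Semen. With Yijin-tang low dose replicate 2 added to the model, 0 members were called against vehicle in any of the 6 comparisons, nor in the comparisons between doses or extracts except Yijin-tang high against low dose.

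In Yijin-tang libraries 8 of 82 members fell (9.76%), against 2.86% of all genes lower and 3.7% higher. The 8 were RPL21, RPL26, RPL36A and RPL41 of the large subunit, the stalk protein RPLP0, and RPS4X, RPS10 and RPS20 of the small subunit. RPLP0, the base of the stalk, had 1166, 1160.0 and 1244 CPM in the 3 Yijin-tang libraries, against 1234, 1398 and 1469 CPM in vehicle. The ranges overlapped through vehicle replicate 1, and the log2 fold change was -0.20 ± 0.047 (SE, edgeR adjusted p = 0.00597). RPL41, a peptide of the large subunit, had 627, 616 and 694 CPM in Yijin-tang libraries, against 756, 757 and 807 CPM in vehicle. All 3 extract libraries lay below all 3 controls, with a log2 fold change of -0.26 ± 0.077 (SE, edgeR adjusted p = 0.0304). RPS20, RPS10 and RPS4X also had groups that did not overlap, with log2 fold changes of -0.25 ± 0.075, -0.24 ± 0.067 and -0.20 ± 0.065 (SE). Over the 82 members the median log2 fold change was -0.15, 81 lay below 0, and in 15 all extract libraries were below all vehicle libraries. The count of called members was 31 without vehicle replicate 1 and 0 without vehicle replicate 3. It was 4 without Yijin-tang replicate 1 and 1 without Yijin-tang replicate 2.

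In Zizyphi Semen libraries 12 members fell (14.6%), against 1.09% of all genes lower and 1.16% higher. RPS29, a small zinc-binding protein of the small subunit with no run within 5 bases of its listed start, had the largest change among these. It had 45.7, 34.9 and 36.9 CPM in Zizyphi Semen libraries, against 61.4, 47.3 and 56.9 CPM in vehicle. The groups did not overlap, and the log2 fold change was -0.51 ± 0.13 (SE, edgeR adjusted p = 0.029). RPL21 had 1016, 927 and 983 CPM in Zizyphi Semen libraries, against 1056, 1315 and 1411 CPM in vehicle. Here too every extract library was lower, by a log2 fold change of -0.37 ± 0.083 (SE, edgeR adjusted p = 0.00864). RPS27A, the fusion with ubiquitin, changed by -0.31 ± 0.087, RPL17 by -0.28 ± 0.071 and RPL34 by -0.28 ± 0.072 on the log2 scale (SE), each without overlap. RPL23 and RPL26, which can bind MDM2, fell by 0.25 and 0.34 on the log2 scale, and RPL24, RPL36A, RPLP0, RPS3A and RPS7 completed the 12. All members together had a median of -0.17, with 80 below 0 and 28 without overlap. The count was 31 without vehicle replicate 1, 5 without vehicle replicate 2 and 0 without vehicle replicate 3. Without Zizyphi Semen replicate 1, 2 or 3 it was 5, 1 and 2.

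In Liriopis seu Ophiopogonis Tuber libraries 10 members fell (12.2%), against 1.57% of all genes lower and 2.41% higher. RPL26, whose start region shows a run of 12 bases, had the lowest adjusted p. It had 366, 401 and 336 CPM in Liriopis seu Ophiopogonis Tuber libraries, against 388, 471 and 559 CPM in vehicle. The groups overlapped through vehicle replicate 1, and the log2 fold change was -0.36 ± 0.074 (SE, edgeR adjusted p = 0.00217). RPS24, a small subunit protein mutated in some cases of Diamond-Blackfan anaemia, had 696, 764 and 651 CPM in Liriopis seu Ophiopogonis Tuber libraries, against 812, 887 and 975 CPM in vehicle. These did not overlap, and the log2 fold change was -0.34 ± 0.071 (SE, edgeR adjusted p = 0.00289). RPL17, RPL23, RPL32, RPL34, RPS4X and RPS10 likewise had every extract library below every control, with log2 fold changes from -0.29 to -0.23. RPL36A also fell, with overlapping groups. Their median over all members was -0.15, with 75 below 0 and 22 without overlap. The count was 33 without vehicle replicate 1 and 0 without vehicle replicate 3. It was 5 without Liriopis seu Ophiopogonis Tuber replicate 1 and 2 without replicate 3.

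In Schisandrae Fructus libraries 3 members fell (RPL26, RPS4X and RPS20, 3.66%), against 2.32% of all genes lower and 3.08% higher. RPS4X, a small subunit protein encoded on the X chromosome, again with no run within 5 bases of its listed start, had 950.0, 958 and 938 CPM in Schisandrae Fructus libraries, against 1018, 1108 and 1240.3 CPM in vehicle. The groups did not overlap, with a log2 fold change of -0.24 ± 0.065 (SE, edgeR adjusted p = 0.0195). The median over the members was -0.12, with 75 below 0 and 12 without overlap. The count was 21 without vehicle replicate 1, 2 without vehicle replicate 2 or Schisandrae Fructus replicate 1, and 0 without vehicle replicate 3 or Schisandrae Fructus replicate 2 or 3.

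In Longan Arillus libraries 1 member fell (RPL26, 1.22%), against 0.642% of all genes lower and 0.725% higher. RPL26 had 392, 376 and 394 CPM in Longan Arillus libraries, against 388, 471 and 559 CPM in vehicle. The groups overlapped, and the log2 fold change was -0.29 ± 0.074 (SE, edgeR adjusted p = 0.0355). Across the members the median was -0.15, with 79 below 0 and 15 without overlap. The count was 21 without vehicle replicate 1 and 0 when any other of the 6 libraries was left out.

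In Soshiho-tang libraries 3 members fell (RPL5, RPL21 and RPS4X, 3.66%), against 8.17% of all genes lower and 9.99% higher, a share of members under that of all genes. RPL5, a binder of MDM2, had 613 and 646 CPM in the 2 Soshiho-tang libraries, against 636, 723 and 803 CPM in vehicle. The ranges overlapped, and the log2 fold change was -0.19 ± 0.062 (SE, edgeR adjusted p = 0.0242). RPS4X did not overlap, with 880 and 1017 CPM in Soshiho-tang libraries, against 1018, 1108 and 1240.3 CPM in vehicle (log2 fold change -0.24 ± 0.073, SE). The median over the members was -0.037, with 52 below 0 and 3 without overlap. Leaving out 1 Soshiho-tang library leaves a single one, which is then assumed to vary like the libraries of the other groups. Without replicate 3, the Soshiho-tang library with red cell transcripts, 28 members were called lower and none higher, with a median of -0.22. Without Soshiho-tang replicate 2, 16 were called higher and 1 lower, with a median of 0.10. The count was 9 without vehicle replicate 1 and 0 without vehicle replicate 3.

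**Figure D3:**
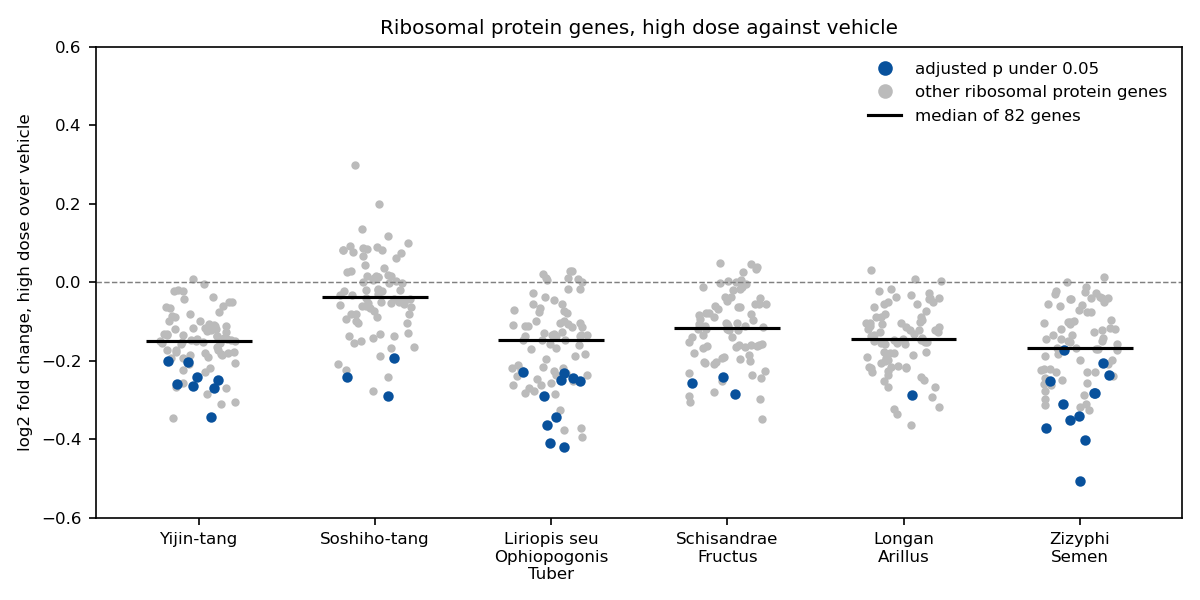
log2 fold change of each of the 82 members at the high dose over vehicle, 1 column per extract, with called members in blue, the rest in grey and the median as a line. Medians lie at -0.15, -0.037, -0.15, -0.12, -0.15 and -0.17 from left to right, and every called member lies below 0.

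Members kept for their roles mostly did not pass the test. RPSA had log2 fold changes between -0.058 and 0.0067 over the 6 extracts, and RPL3, which lies at the peptidyl transferase centre, had values between -0.050 and 0.048. RPS6, the substrate of S6 kinase, lay between -0.12 and -0.055, and RPS3 between -0.18 and -0.046. RPL11, a binder of MDM2, lay between -0.26 and -0.063 without a call. Its 3 vehicle libraries were at 591, 729 and 844 CPM, with replicate 1 lowest and replicate 3 highest. RPL22L1, the paralog of RPL22, ran from -0.31 to 0.20, and RPL22 from -0.14 to -0.056. Among the 55 members with a run within 5 bases of a listed start, the median log2 fold change in Yijin-tang was -0.15, against -0.15 for the 12 without one. With and without a run, the medians were -0.17 and -0.17 in Zizyphi Semen, -0.15 and -0.18 in Liriopis seu Ophiopogonis Tuber, -0.11 and -0.16 in Schisandrae Fructus, -0.14 and -0.20 in Longan Arillus, and -0.043 and -0.040 in Soshiho-tang. These are descriptions of 2 unequal groups of members and were not tested.

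Coding length moved with these differences. Other protein-coding genes with a coding length under 300 nt had a median log2 fold change of -0.10 in Yijin-tang, -0.12 in Liriopis seu Ophiopogonis Tuber, -0.11 in Schisandrae Fructus and Longan Arillus, -0.13 in Zizyphi Semen and 0.029 in Soshiho-tang. Those of 3000 nt and over had medians of 0.056, 0.035, 0.056, 0.057 and 0.049 in the first 5 and -0.0051 in Soshiho-tang. The 49 members of 300 to under 600 nt stood lower than other genes of that length, at -0.16 against -0.052 in Yijin-tang and -0.20 against -0.059 in Zizyphi Semen. The part of coding length in the member changes was not tested.

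High and low doses of 1 extract lie in the same library set, so this comparison does not rest on the vehicle. In Longan Arillus 4 members (4.88%) fell at the high dose relative to the low dose, against 0.606% of all genes lower and 3.61% higher. RPL13 had 745, 773 and 787 CPM at the high dose, against 884, 877 and 874 CPM at the low dose. The groups stood well apart, with a log2 fold change of -0.20 ± 0.052 (SE, edgeR adjusted p = 0.0188). RPL18 had 808, 832 and 805 CPM at the high dose, against 904, 922 and 901 CPM at the low dose, again with no overlap (-0.16 ± 0.046, SE, edgeR adjusted p = 0.0351). RPL34 had 199, 193 and 212 CPM at the high dose, against 238, 256 and 231 CPM at the low dose (-0.27 ± 0.072, SE, edgeR adjusted p = 0.0207). RPS3A, the last of the 4, overlapped and changed by -0.21 ± 0.062 (SE). In 44 members every high dose library was below every low dose library, a count that was not computed over all genes. Of the 82 members, 81 lay below 0, and the median was -0.13. The count was 0 without Longan Arillus high dose replicate 1 or 2 or low dose replicate 1, and 2 without low dose replicate 2.

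In Longan Arillus the share of counts in the members was 5.66%, 5.56% and 5.63% at the low dose, 5.20%, 4.99% and 4.88% at the medium dose and 4.94%, 5.04% and 5.22% at the high dose. The low dose libraries thus stood above both other doses, and the median member at the low dose was only 0.010 below the vehicle mean on the log2 scale. Length moved with this difference too. In the same comparison, other genes under 300 nt had a median log2 fold change of -0.12 and those of 3000 nt and over of 0.13. Members stood at -0.13 in both the under 300 nt and the 300 to under 600 nt class, where other genes stood at -0.12 and -0.080. The part of length in the member changes was not tested.

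In Soshiho-tang 3 members (3.66%) rose at the high dose relative to the low dose, against 9.36% of all genes higher and 7.23% lower. RPS15, a small subunit protein near the decoding site, had 312 and 324 CPM at the high dose, against 274 and 242 CPM at the low dose. These did not overlap, with a log2 fold change of 0.31 ± 0.098 (SE, edgeR adjusted p = 0.0255). RPL41 had 652 and 973 CPM at the high dose, against 700 and 619 CPM at the low dose, and RPL17 had 420.4 and 583 CPM at the high dose, against 442 and 399 CPM at the low dose. In both the high value came from replicate 3, the library with red cell transcripts. The log2 fold changes were 0.31 ± 0.094 for RPL41 and 0.26 ± 0.086 for RPL17 (SE), and without that library they were -0.0096 and 0.0071. The median over the members was 0.12 with all libraries, -0.066 without high dose replicate 3 and 0.24 without high dose replicate 2. Each such fit has a single high dose library, assumed to vary like those of other groups. Without high dose replicate 3, 1 member was called lower and none higher, and without high dose replicate 2, 41 were called higher and 1 lower. The count was 7 without low dose replicate 2 and 0 without low dose replicate 3. Other genes under 300 nt had a median of 0.15 and those of 3000 nt and over of -0.047.

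In the remaining 4 extracts no member was called between high and low dose. In Yijin-tang, where 0.475% of all genes were called in either direction, 2 members had an unadjusted p under 0.05 in edgeR, and DESeq2 also called 0. In Liriopis seu Ophiopogonis Tuber 0.0% of all genes were called, 1 member had an unadjusted p under 0.05, and DESeq2 called 0. In Schisandrae Fructus (0.505% of all genes) and Zizyphi Semen (0.202%), no member had an unadjusted p under 0.05 in edgeR and DESeq2 called 0. The members' median log2 fold changes were -0.040, -0.053, 0.019 and 0.020 in these 4. Their median SE was between 0.074 and 0.083, so a change of that size in a single member was not detectable at this depth and number of libraries. In the low dose libraries of Yijin-tang, Liriopis seu Ophiopogonis Tuber, Schisandrae Fructus and Zizyphi Semen the median member lay 0.13, 0.11, 0.14 and 0.18 below the vehicle mean on the log2 scale. In vehicle replicate 1 the median member itself had a log2 ratio of -0.13 to that mean. Extract and library set cannot be told apart in these values.

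Extracts that share a library set were compared at the high dose. Yijin-tang against Soshiho-tang gave 2 lower members (2.44%) and none higher, against 6.4% of all genes lower and 4.8% higher. RPL13 had 753, 725 and 789 CPM in Yijin-tang libraries, against 792 and 948 CPM in Soshiho-tang libraries. The groups did not overlap by a narrow margin, and the log2 fold change was -0.21 ± 0.058 (SE, edgeR adjusted p = 0.0129). RPL41 overlapped and changed by -0.34 ± 0.085 (SE, edgeR adjusted p = 0.00577). With a single Soshiho-tang library left, again assumed to vary like those of other groups, no member was called without replicate 3 and the median was 0.053, and without Soshiho-tang replicate 2 it was -0.25 with 41 called lower and 1 higher. With all libraries the median was -0.12. The count was 4 without Yijin-tang replicate 1 or 3 and 1 without Yijin-tang replicate 2.

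No member differed between Schisandrae Fructus and Liriopis seu Ophiopogonis Tuber (0.38% of all genes called in either direction) or between Longan Arillus and Zizyphi Semen (0.0475%). In edgeR 1 member had an unadjusted p under 0.05 in the first of these and 0 in the second, and DESeq2 called 0 in both. The medians were 0.037 and 0.023 on the log2 scale. The difference of the dose effects, high minus low, was also tested within each set. No member was called for Yijin-tang minus Soshiho-tang (2.79% of all genes called), where 10 members had an unadjusted p under 0.05 and the lowest adjusted p was 0.0726. None was called for Longan Arillus minus Zizyphi Semen (0.82% of all genes called), where 18 had an unadjusted p under 0.05 and the lowest adjusted p was 0.0831. None was called for Schisandrae Fructus minus Liriopis seu Ophiopogonis Tuber (0.0594% of all genes called), with 0 members under an unadjusted p of 0.05. A larger change of the members in Longan Arillus than in Zizyphi Semen was thus not shown, although the median difference was -0.15.

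Aucklandiae Radix at the high dose had the lowest share of counts in the members, 3.70% in its 1 library, below all others. There is no replicate check and no test of this group. The median member lay at a log2 ratio of -0.47 to the vehicle mean, and 80 of 82 members were below the range of the vehicle libraries. The share of all genes below that range was not computed, so the 80 cannot be set against it. Below -0.5 lay 31 members and above 0.5 lay none, where 16.5% and 17.0% of all genes lay. RPS29 was lowest of all, with 30.2 CPM in the Aucklandiae Radix library against a vehicle mean of 55.2 CPM, a log2 ratio of -0.86. RPL13A, a large subunit protein that also takes part in the GAIT complex of translational silencing, had 1271 CPM in the Aucklandiae Radix library against a vehicle mean of 2294 CPM (-0.85), and RPL36A had 235 CPM against 401 CPM (-0.77). At the other end stood RPL36AL with 88.3 CPM in the Aucklandiae Radix library against 82.2 CPM in vehicle (0.10), RPL7L1 at -0.034 and RPL26L1 at -0.15. The 3 highest members were thus all paralogs or similar proteins, whose median was -0.15. The lowest of these 5 proteins was RPL22L1 at -0.56, with 10.9 CPM in the Aucklandiae Radix library against a vehicle mean of 16.2 CPM. It lay below the median of all members. Large subunit, small subunit and stalk members had medians of -0.47, -0.47 and -0.53.

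At the lower doses of Aucklandiae Radix the shift was smaller. The median member lay at -0.17 at 14.8 µg/mL, -0.16 at 74 µg/mL and -0.47 at 370 µg/mL. RPL3 had 1098, 1021 and 696 CPM in that order of dose, and RPLP0 had 1244, 1179 and 887 CPM. Other short genes did not move as the members did at the high dose. Other genes with a coding length under 600 nt had a median log2 ratio of -0.060 to the vehicle mean, and those of 3000 nt and over of 0.051. The 55 members with a run within 5 bases of a listed start had a median of -0.47, and the 12 without one of -0.32. Their ranges were -0.85 to 0.10 and -0.86 to -0.034. Epithelial marker transcripts summed to 15800 CPM in that library, against a range of 12250 to 14670 CPM in the 53 tested libraries. The tested libraries leave out Yijin-tang low dose replicate 2, which had 18860 CPM. The share of MALAT1 and NEAT1, RNAs retained in the nucleus, was 0.252%. It was 0.101% to 0.168% in the tested libraries and 0.397% in Yijin-tang low dose replicate 2. Mitochondrially encoded transcripts took 6.64% (6.95% to 12.09% in the tested libraries). Summed endothelial markers were at 9.12 CPM (0.73 to 2.46 CPM), fibroblast markers at 4.08 CPM (1.5 to 3.29 CPM) and leukocyte markers at 1053 CPM (1229 to 1582 CPM). Their part in the member levels was not tested.

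Polygalae Radix, in the same library set, had medians of -0.11, -0.19 and -0.19 at 15.2, 76 and 380 µg/mL. The share of counts in the members was 5.19%, 4.895% and 5.31% in that order of dose. As log2 ratios to the vehicle share these were -0.054, -0.14 and -0.021. At 380 µg/mL the share thus stood near that of vehicle, and the lower median there depended on the measure. At the high dose no member lay below -0.5 or above 0.5, where 6.62% and 2.44% of all genes lay. The lowest were RPL24 (-0.46), RPS27A (-0.42) and RPS25 (-0.39), and the highest RPL13A (0.14) and RPLP1 (0.073). Epithelial markers summed to 8730 CPM in that library, the lowest of all, leukocyte markers to 960 CPM, and MALAT1 and NEAT1 took 0.195% of counts. Their part in the member levels was not tested. RPL13A was at opposite ends of the members in these 2 single libraries, at 2534 CPM in Polygalae Radix and 1271 CPM in Aucklandiae Radix.

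**Figure D4:**
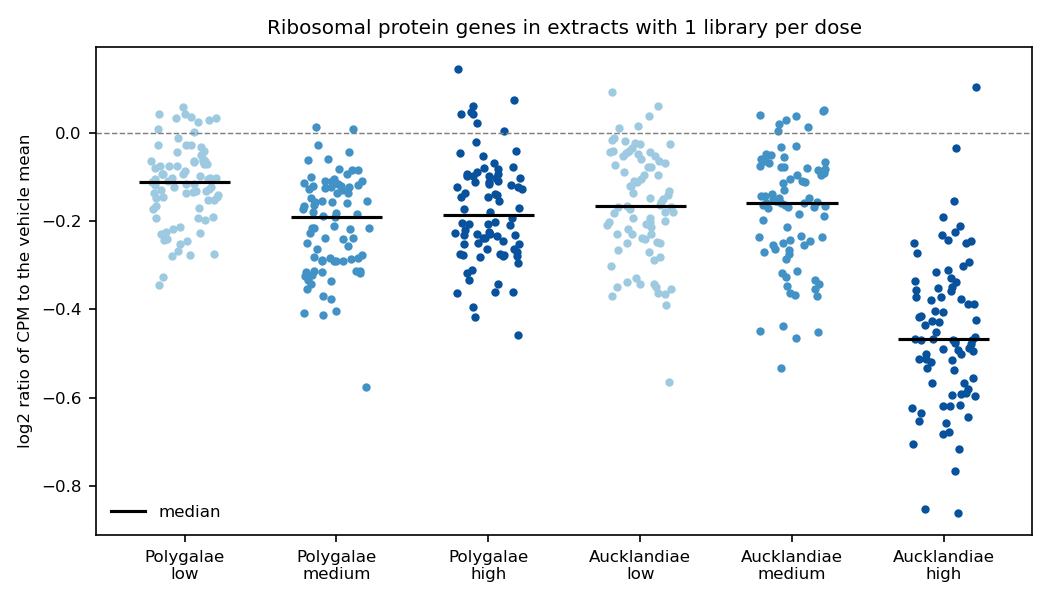
log2 ratio of each of the 82 members to the vehicle mean in Polygalae Radix and Aucklandiae Radix, each column 1 library, with doses from low to high and the median as a line. The medians lie between -0.19 and -0.11 in 5 libraries and at -0.47 in Aucklandiae Radix high dose.

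Among the members, levels varied together over libraries. Over the 59 libraries other than Yijin-tang low dose replicate 2, the coefficient of variation of a member's CPM was 7.90% at the median, against 7.84% for 10515 other genes of at least 5 CPM. The steadiest member was RPL15 (4.32%) and the most variable RPS29 (14.8%). The group means of RPL22L1 differed the most, by 1.52 times between Soshiho-tang high dose and Zizyphi Semen low dose, and those of RPL7L1 the least, by 1.09 times. In Soshiho-tang the mean of RPL22L1 rested on replicate 3, with 12.7 and 23.6 CPM in replicates 2 and 3. The correlation of a member with the mean of the other members had a median of 0.763 over the 59 libraries, from 0.291 for RPL28 to 0.936 for RPS10. Non-members with the most similar pattern to the mean of the members were CRIP1 (r = 0.837), MRPL40 and MPC2 (both 0.822), and SNRPG and NME2 (both 0.821), over the same 59 libraries. All points share the scaling of their library, so these values are descriptions. The coding lengths of these 5 genes ran from 228 to 618 nt. The ratio of large to small subunit counts stayed between 1.41 and 1.48 in the 59 libraries, with the lowest value in Soshiho-tang high dose replicate 3.

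Yijin-tang low dose replicate 2 stood far above its group. It was set apart for its share of counts in the members, so higher member levels follow from that choice and are descriptions. Its members took 11.5% of counts, against 5.36% and 5.02% in replicates 1 and 3, and its total of 22720226 counts was ordinary. All 82 members were higher than in the mean of the other 2 libraries, by 2.56-fold at the median, and 67 of 82 by more than 2-fold, as were 10.0% of all 10672 genes above the 5 CPM level. RPS29 differed most, with 224 CPM in replicate 2, against 48.5 and 38.03 CPM in replicates 1 and 3, a log2 ratio of 2.36. RPS21 followed with 1069 CPM in replicate 2, against 268 and 227 CPM in the others (2.11), before RPL39 (1.95), RPS27A (1.92) and RPS12 (1.91). The smallest differences were those of RPL4 with 2628 CPM in replicate 2, against 1986 and 2061 CPM in the others (0.38), RPL7L1 (0.50), RPL3 (0.59), RPL12 (0.65) and RPL11 (0.73). The ratio of large to small subunit counts was 1.31 in this library.

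The difference followed coding length in members and other genes alike. Members under 300 nt had a median log2 ratio of 1.66, those of 300 to under 600 nt 1.43, of 600 to under 900 nt 1.10 and of 900 to under 1500 nt 0.59. Other protein-coding genes of the same 4 classes had medians of 1.16, 0.77, 0.50 and 0.15, and those of 1500 to under 3000 nt and of 3000 nt and over -0.34 and -0.97. Members thus stood above the other genes in each class where both were found. This excess comes from the same values by which the library was set apart, so it is no separate finding. The nuclear genes of oxidative phosphorylation, many of them short, had a median of 1.51, the mitochondrial ribosomal proteins 0.91 and the snoRNA host genes 0.99. In this library MALAT1 and NEAT1 took 0.397% of counts (0.101% to 0.168% in the other libraries with replicates). Epithelial markers summed to 18860 CPM (12250 to 14670 CPM), leukocyte markers to 1997 CPM (1229 to 1582 CPM) and red cell markers to 0.29 CPM. Their part in the member levels was not tested.

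**Figure D5:**
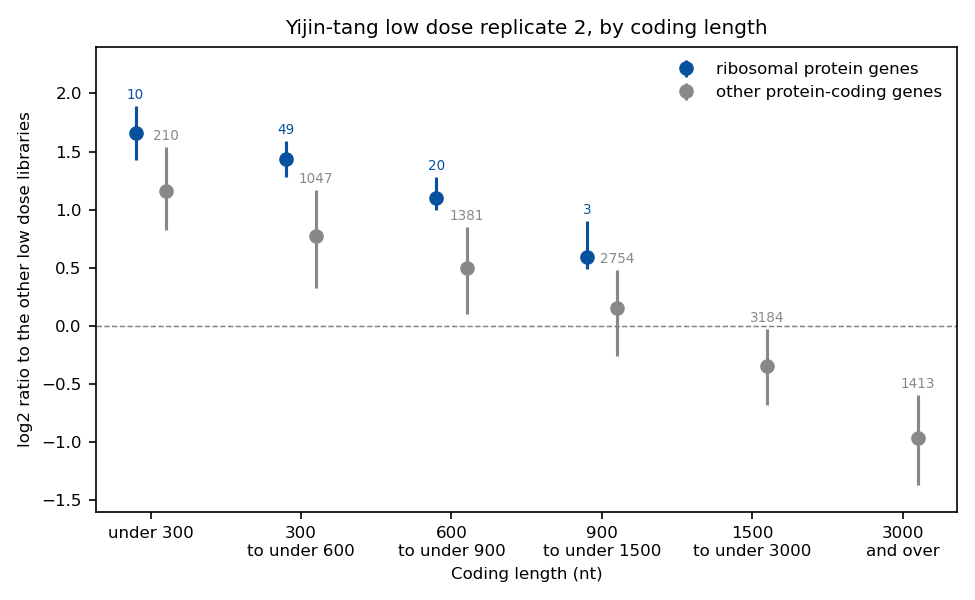
Median log2 ratio of Yijin-tang low dose replicate 2 to the mean of replicates 1 and 3, by coding length in nt, for the members (blue) and other protein-coding genes (grey), with the quartiles as bars and the number of genes above each point. Members lie at 1.66, 1.43, 1.10 and 0.59, and other genes decline to -0.97 at 3000 nt and over.

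Gene groups around the ribosome differed in how they compared with the members. The nuclear genes of oxidative phosphorylation had medians close to those of the members against vehicle in 5 extracts, and few passed the test. Their median log2 fold change was -0.13 in Yijin-tang (1 of 38 lower), -0.15 in Liriopis seu Ophiopogonis Tuber (3 lower), -0.12 in Schisandrae Fructus, -0.15 in Longan Arillus and -0.18 in Zizyphi Semen (2 lower), and it was 0.036 in Soshiho-tang (2 higher). The host genes of snoRNAs had medians of -0.11 in Yijin-tang, -0.13 in Longan Arillus and -0.12 in Zizyphi Semen, with 1 of 15 lower in each, and -0.037, 0.034 and 0.029 in Liriopis seu Ophiopogonis Tuber, Schisandrae Fructus and Soshiho-tang. In the single library of Aucklandiae Radix at the high dose, snoRNA host genes had a median log2 ratio of -0.39 (15 of 15 below 0), oxidative phosphorylation genes of -0.27, translation factors and other TOP genes of -0.25, and ribosome biogenesis factors of 0.17.

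Ribosome biogenesis factors, which build the subunits in the nucleolus, had 15 of 45 called higher at the high dose of Soshiho-tang against vehicle (median log2 fold change 0.12, 9.99% of all genes higher). Against the low dose 21 of 45 were higher (median 0.17, 9.36% of all genes higher), and none was lower in either comparison. The largest changes against the low dose were those of NOP10 (0.43 ± 0.12), EBNA1BP2 (0.38 ± 0.066) and RRP9 (0.37 ± 0.076, SE). In the same comparison 26 of 78 mitochondrial ribosomal protein genes and 9 of 38 genes of oxidative phosphorylation were higher and none lower. All of these Soshiho-tang values include replicate 3, the library with red cell transcripts. In Yijin-tang against vehicle 6 of 45 biogenesis factors were higher and none lower (median 0.034, 3.7% of all genes higher), while 8 members fell. Translation factors and other TOP genes had 0 or 1 higher and 1 or 2 lower of 29 in the comparisons with vehicle. TPT1, a TOP mRNA, was lower in Zizyphi Semen (-0.28), Liriopis seu Ophiopogonis Tuber (-0.24), Longan Arillus (-0.23), Schisandrae Fructus (-0.23) and Yijin-tang (-0.21). TPT1 does not stand for its list. The median of the 29 genes was -0.058 in Yijin-tang, -0.027 in Liriopis seu Ophiopogonis Tuber, -0.022 in Schisandrae Fructus and -0.0040 in Soshiho-tang. The members had medians of -0.15, -0.15, -0.12 and -0.037 in these 4 extracts. Of 18 tested regulators of these mRNAs, 1 was higher and 3 lower in Yijin-tang, 3 higher and 2 lower in Soshiho-tang, 1 higher and 1 lower in Schisandrae Fructus, and none higher and 1 lower in Longan Arillus. RICTOR, a subunit of mTOR complex 2, was the one higher in Yijin-tang (0.34 ± 0.060) and in Schisandrae Fructus (0.25 ± 0.060, SE). LARP6, an RNA-binding protein of the La-related family, was lower in Yijin-tang (-0.62 ± 0.19) and in Schisandrae Fructus (-0.71 ± 0.19, SE). In Soshiho-tang EIF4EBP1, which binds the cap-binding protein, was higher (0.26 ± 0.084) and its relative EIF4EBP2 lower (-0.15 ± 0.040, SE). In Longan Arillus at the high dose against the low dose, the snoRNA host genes SNHG5 (-0.36 ± 0.11), SNHG8 (-0.34 ± 0.085) and SNHG29 (-0.16 ± 0.042, SE) were lower, 3 of the 15 on that list.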

How the data were processed

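Expected counts per gene, not normalized, were deposited by the authors as 1 table of 60675 genes and 60 libraries. RSEM 1.3.3, STAR 2.7.3a, Trim Galore 0.6.5, FastQC 0.11.9 and GRCh38 are named, without order, in the submitters' processing notes. The annotation release and the strand setting of the counting are not given in the sources used here. Libraries were stranded and read as paired 100 bp, per the labels' protocols. Symbols were found for 57055 IDs (GENCODE 29). Expected counts were rounded, and edgeR 4.0.16 (R 4.3.3) fitted 1 quasi-likelihood model to 53 libraries in 19 groups, with TMM scaling, filterByExpr and group as the only term. A gene was called where its p, adjusted by Benjamini-Hochberg over 16835 genes in each of 15 comparisons, was under 0.05. CPM used TMM-scaled library sizes, and ratios for single libraries used a pseudocount of 0.5 CPM and genes of at least 5 CPM. The common biological coefficient of variation was 5.07%. No label says that libraries of a group came from separate cultures, so p-values measure only the spread between these libraries, which may be technical. The test was checked on counts simulated gene by gene, with 200 genes changed by 1.25, 1.5 or 2-fold. Of those changed 1.25-fold it recovered 79.1% for Zizyphi Semen high dose against vehicle and 59.7% for Soshiho-tang high against low dose. Smaller changes, and genes that vary together, were not simulated. Library totals of 18161717 to 35128954 counts bound the precision of each value. Yijin-tang low dose replicate 2 was left out of the model because its share of ribosomal protein counts stood far above its group, and groups of 1 library were not tested. Fits without 1 of 2 Soshiho-tang libraries take the spread of the one left from the other groups.

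The members and gene lists were chosen with earlier results of these data known. Members named in the text were, for each comparison, up to 5 called with groups that did not overlap, members kept for their roles, and the extremes of the single libraries. Other called members and genes of other lists were named after their values were seen. Values of some members are not reported here. Alternatives were DESeq2 1.42.0, other scaling, no filter, a replicate block, the left-out library and each library left out.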

Additional observations from a re-analysis of the deposited data

Results flagged for a closer look

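In Yijin-tang low dose replicate 2, a library that entered no comparison, the members took 11.5% of all counts, above the 4.94% to 5.75% of the vehicle libraries. It was listed as a signal in data outside the main measurement that exceeded the level in the controls. The same share was the reason for leaving the library out, so the flag was fixed in advance and is no separate finding. Groups of at most 3 libraries are too small for a search for single outlying values, and no difference in dose effect between extracts was called for any member.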

How the results depend on the processing

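Of 160 recounts of called members over the 15 comparisons, 91 stayed within 1.5 times the count reported. Those 91 include recounts that stayed at 0 in comparisons where no member had been called. Most of the recounts that moved were in comparisons with calls. With no filter on low counts, the numbers called against vehicle were 34 for Yijin-tang, 9 for Soshiho-tang, 37 for Liriopis seu Ophiopogonis Tuber, 22 for Schisandrae Fructus, 28 for Longan Arillus and 38 for Zizyphi Semen, and those of high against low dose 25 for Soshiho-tang, 1 for Liriopis seu Ophiopogonis Tuber and 23 for Longan Arillus, with 29 for Yijin-tang against Soshiho-tang. DESeq2 called 16, 3, 16, 6, 4 and 19 against vehicle in that order, 11 for Longan Arillus high against low dose and 6 for Yijin-tang against Soshiho-tang. With Yijin-tang low dose replicate 2 in the fit, 78 members were lower in Yijin-tang high than low dose and 0 were called in the other 14 comparisons. The cause was not tested.

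With the replicate number as a block, 4 members were called for Yijin-tang against Soshiho-tang and 16 for Zizyphi Semen against vehicle, and the other counts were within 1 of those reported. Whether the replicate numbers pair libraries is not known. In 0 of 11 comparisons with 3 pairs did every pair's deviations correlate above 0.1, and in 0 of 4 with 2 pairs. Low correlations cannot exclude a pairing, so no conclusion on it is drawn. Leaving out each library gave counts of 0 to 31 for Yijin-tang, 0 to 28 for Soshiho-tang, 0 to 33 for Liriopis seu Ophiopogonis Tuber, 0 to 21 for Schisandrae Fructus, 0 to 21 for Longan Arillus and 0 to 31 for Zizyphi Semen against vehicle. It gave 0 to 42 for Soshiho-tang and 0 to 4 for Longan Arillus between high and low dose, and 0 to 42 for Yijin-tang against Soshiho-tang. Of 46 calls, 0 held with every library left out and 45 kept their direction. The exception was RPL41 in Soshiho-tang high against low dose, from -0.0096 (edgeR adjusted p = 0.972) to 0.56. Changes of sign to or from a call were checked only in members kept for their roles or called in the same comparison. On leaving out 1 library in Soshiho-tang against vehicle, RPL41 ran from -0.24 to 0.33 and RPLP2 from -0.29 to 0.29. With the left-out library in the fit, some of the checked members changed sign to a call in Yijin-tang high against low dose. They were RPL22L1 (-0.84), RPL23 (-0.58), RPL26 (-0.55), RPL26L1 (-0.52), RPL36AL (-0.51) and RPL5 (-0.40). Other members called in that fit were not checked for a change of sign. Changes of about 0.2 on the log2 scale lie near the limit that 2 or 3 libraries per group set.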

Other observations

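Ribosomal protein pseudogenes, copies that share sequence with the members, took 0.0635% to 0.135% of counts over the 59 libraries and 0.183% in Yijin-tang low dose replicate 2. Of the 1587 pseudogenes by symbol and biotype, 118 passed the filter on low counts. At the high dose against vehicle, edgeR called 3 of the 118 lower in Soshiho-tang (8.17% of all genes lower), 3 in Liriopis seu Ophiopogonis Tuber (1.57% of all genes) and 1 in Schisandrae Fructus (2.32% of all genes), with none higher. Their median log2 fold changes against vehicle were -0.18 in Yijin-tang, -0.21 in Soshiho-tang, -0.27 in Liriopis seu Ophiopogonis Tuber, -0.15 in Schisandrae Fructus, -0.10 in Longan Arillus and -0.27 in Zizyphi Semen.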
